A study of Mus musculus with 34 samples.

Results

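Genes that build the motile cilia of ependymal cells were followed across all RNA libraries of a mouse study of HDAC1, a histone deacetylase. The genes were chosen by name: 43 symbols were looked up among the 23951 genes of the deposited tables, and 42 were found. The remaining symbol, Dnah12, was not analysed here. Of these genes, 35 passed the filter on low values (averaging 0.5 FPKM or more in the mice compared) in at least 1 hippocampal comparison, and 27 passed it in sorted nuclei. FPKM counts sequenced fragments relative to transcript length and to all mapped fragments of the library. The 7 genes left out in hippocampus were too low to test there, so the counts below describe the genes that passed and not the whole list.

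Ependymal cells line the brain ventricles, and each carries a tuft of motile cilia whose beating moves the cerebrospinal fluid. The shaft of a motile cilium, the axoneme, is a ring of doublet microtubules around a central pair. Outer and inner dynein arms slide the doublets, nexin links and radial spokes turn sliding into bending, and the transcription factors FOXJ1 and RFX switch on the genes for these parts. The hippocampus borders the lateral ventricle, where the choroid plexus, the fluid-secreting tissue marked by very high Ttr (transthyretin), is attached to the ependymal wall.

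The hippocampal libraries came from 4 groups of mice, and every mouse carried floxed Hdac1 alleles. Control mice (n = 4) were Hdac1f/f. The Hdac1 cKO mice (n = 5) were Hdac1f/f with Nestin-Cre, a driver active in the neural lineage, so that neurons and astrocytes lose HDAC1 while microglia keep it. The 5XFAD mice (n = 6) were Hdac1f/f and carried the 5XFAD transgenes, a model of amyloid deposition. Mice with Hdac1f/f, Nestin-Cre and 5XFAD together (n = 5) are called compound mice here. The labels give an age of 13 to 14 months for the control and Hdac1 cKO mice and 13 months for the other hippocampal groups. A separate set of libraries was made from GFAP+ nuclei sorted out of cortex, with 3 control and 4 Hdac1 cKO libraries from mice of 13 months. Hippocampal libraries counted 3′ ends of transcripts, whereas the nuclei were sequenced by a whole-transcript, low-input method, so levels were not tested between them.

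The targeted gene followed the labels in the hippocampus. Hdac1 lay between 5.91 and 10.7 FPKM in control mice and between 2.36 and 3.03 FPKM in Hdac1 cKO mice, and between 6.10 and 9.64 FPKM in 5XFAD mice and between 1.15 and 2.52 FPKM in compound mice. In the nuclei the groups overlapped, with 9.91 to 22.3 FPKM in controls and 5.8 to 11.5 FPKM in Hdac1 cKO. Relative depth, read from the steps of the low values, ran from 0.754 to 2.35 in hippocampus and from 0.869 to 1.26 in nuclei, with 1 library of each kind as the unit. Ttr separated mice within a group as well as between groups. Control mouse 1 had 576 FPKM of Ttr and the other controls 12903 to 20146 FPKM, Hdac1 cKO mouse 5 had 1608 FPKM against 56.5 to 106 FPKM in its group, and compound mouse 1 had 13910 FPKM against 58.9 to 265 FPKM. In 5XFAD mice Ttr ran from 53.8 to 7892 FPKM.

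The genes spanned a wide range of levels in the hippocampus. Because fragments of a 3′ library come from one end of each transcript, scaling by length distorts the order of levels between genes, which is approximate. The highest were Fam183b, an axonemal protein, with a mean of 57.2 FPKM over the 20 hippocampal libraries, Rsph9, a protein of the radial spoke head, with 47.9 FPKM, and Meig1, named for its expression in meiosis, with 23.3 FPKM. The mean was at least 2 FPKM for 21 genes and under 0.5 FPKM for 7 genes. The low genes included heavy chains such as Dnah5 of the outer arm, at 0.311 ± 0.127 FPKM (SD, n = 20), and Hydin of the central pair, at 0.105 ± 0.0551 FPKM (SD, n = 20). Foxj1, the master regulator of motile cilia and the marker given for the list, was itself low, at 1.08 ± 0.671 FPKM (SD, n = 20), which corresponds to about 3 to 29 fragments in a library. None of the 42 genes was listed at 0 in every hippocampal library.

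**Figure D1:**
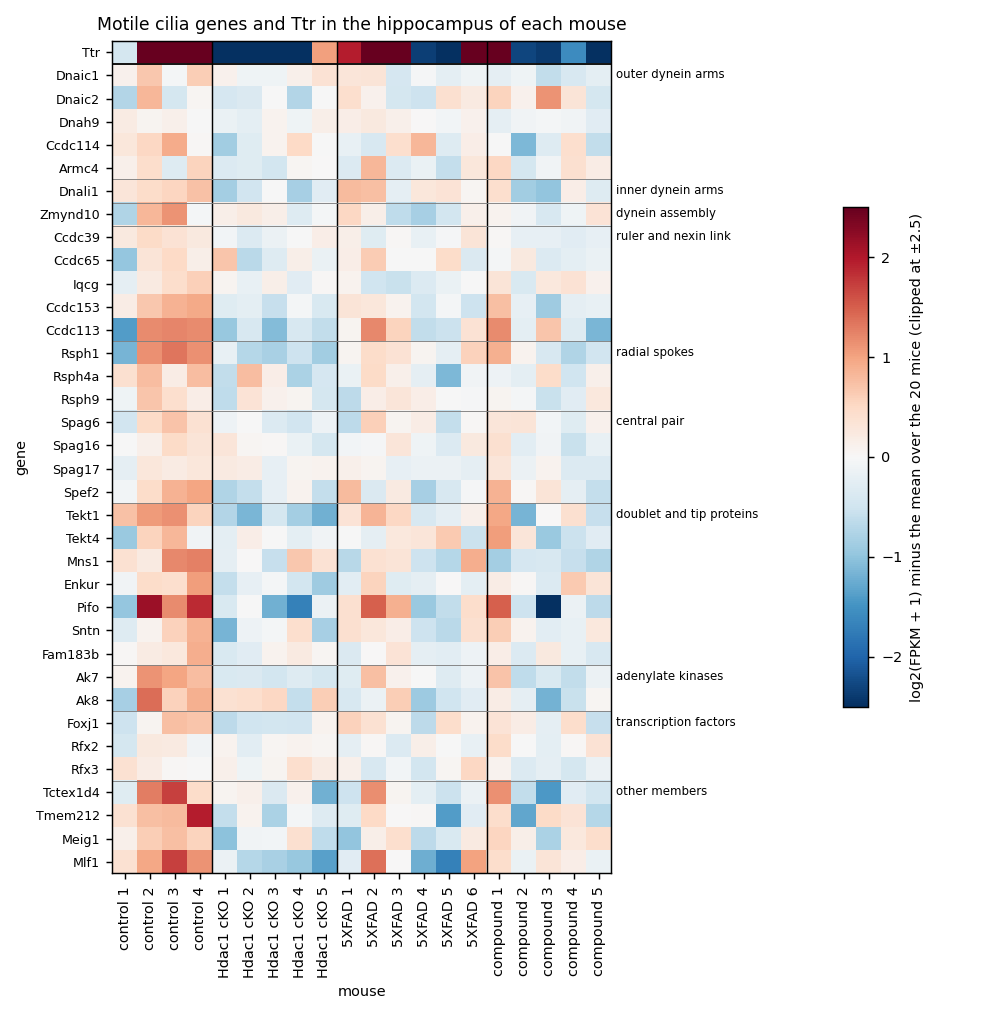
Colour gives the level of Ttr (top row) and of each of the 35 tested motile cilium genes (rows, ordered by role) in each hippocampal mouse (columns, by group) as log2(FPKM + 1) minus the gene's mean over the 20 mice, clipped at the ends of the colour bar. Control mouse 1 is lowest of its group for 27 of 35 genes (4007 of 14265 over all genes). Compound mouse 1 is highest of its group for 20 of 35, a rank not counted over all genes.

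In the sorted nuclei the same list had another profile. The highest means over the 7 libraries were those of Rsph9 at 32.0 FPKM, Iqcg, a subunit of the nexin-dynein regulatory complex, at 15.7 FPKM, and Ccdc39, which sets the repeat of the dynein arms along the doublet, at 12.5 FPKM. The mean was higher in nuclei than in hippocampus for 14 of 42 genes and lower for 28. Rfx2 was at 6.36 ± 1.62 FPKM (SD, n = 7) in nuclei and at 0.514 ± 0.244 FPKM (SD, n = 20) in hippocampus. Fam183b showed the opposite pattern, with 4.65 ± 3.00 FPKM (SD, n = 7) in nuclei. Summed FPKM of 8 astrocyte markers ran from 2872 to 3524 in nuclei and from 943 to 1285 in hippocampus, and the sum of 9 neuron markers from 193 to 279 in nuclei and from 1505 to 2009 in hippocampus. Foxj1, the defining marker, was at 0.103 to 1.20 FPKM in the nuclei, and how many ependymal nuclei were among those sorted was not tested.

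The promoters of 6 genes are shown because the results turn on them: Tekt1, Mlf1, Ccdc153 and Mns1 had group differences that passed adjustment over all genes, and Pifo and Ccdc113 followed Ttr most closely among mice of one genotype. Each sequence is from RefSeq on build GRCm38.p6, runs from 250 bases before the start site to 50 after it, and is written along the gene's own strand. Capitals mark the core of the X-box bound by RFX factors, GTTGCC or its reverse complement GGCAAC, and in Mlf1 also TGTTTAC, a forkhead motif. Tekt1, at chr11:72361833-72362132 on the minus strand, is the upstream of 2 annotated promoters. Mlf1 is at chr3:67373847-67374146, Ccdc153 at chr9:44240427-44240726, Mns1 at chr9:72438279-72438578 and Ccdc113 at chr8:95533850-95534149, all on the plus strand, and Pifo at chr3:106001448-106001747 on the minus strand, the downstream of 2.
Tekt1: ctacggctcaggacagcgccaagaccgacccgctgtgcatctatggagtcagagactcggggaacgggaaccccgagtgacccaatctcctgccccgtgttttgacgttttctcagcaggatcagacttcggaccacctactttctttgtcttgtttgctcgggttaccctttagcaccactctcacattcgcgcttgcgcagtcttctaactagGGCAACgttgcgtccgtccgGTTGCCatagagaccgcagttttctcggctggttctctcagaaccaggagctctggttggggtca
Mlf1: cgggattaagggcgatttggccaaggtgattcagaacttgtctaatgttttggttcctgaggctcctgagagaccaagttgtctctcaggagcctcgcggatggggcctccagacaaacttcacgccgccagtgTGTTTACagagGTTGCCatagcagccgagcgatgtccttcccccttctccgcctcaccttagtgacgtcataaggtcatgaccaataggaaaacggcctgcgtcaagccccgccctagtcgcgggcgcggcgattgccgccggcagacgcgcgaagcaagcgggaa
Ccdc153: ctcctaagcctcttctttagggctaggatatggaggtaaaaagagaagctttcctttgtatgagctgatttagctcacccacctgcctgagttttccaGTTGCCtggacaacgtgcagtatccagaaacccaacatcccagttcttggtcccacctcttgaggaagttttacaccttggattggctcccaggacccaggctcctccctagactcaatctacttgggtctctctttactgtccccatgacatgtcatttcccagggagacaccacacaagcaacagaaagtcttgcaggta
Mns1: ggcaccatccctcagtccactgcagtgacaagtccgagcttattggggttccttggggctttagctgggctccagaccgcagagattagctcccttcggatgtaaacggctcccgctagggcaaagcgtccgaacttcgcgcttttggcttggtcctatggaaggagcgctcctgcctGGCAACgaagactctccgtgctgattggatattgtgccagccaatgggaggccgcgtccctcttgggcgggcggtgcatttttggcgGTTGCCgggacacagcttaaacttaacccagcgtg
Ccdc113: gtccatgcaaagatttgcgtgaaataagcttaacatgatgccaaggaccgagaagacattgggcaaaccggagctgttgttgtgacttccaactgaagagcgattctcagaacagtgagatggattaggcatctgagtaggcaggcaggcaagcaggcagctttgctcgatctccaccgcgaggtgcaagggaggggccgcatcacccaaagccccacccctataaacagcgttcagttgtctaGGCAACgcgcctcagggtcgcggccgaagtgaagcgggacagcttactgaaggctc
Pifo: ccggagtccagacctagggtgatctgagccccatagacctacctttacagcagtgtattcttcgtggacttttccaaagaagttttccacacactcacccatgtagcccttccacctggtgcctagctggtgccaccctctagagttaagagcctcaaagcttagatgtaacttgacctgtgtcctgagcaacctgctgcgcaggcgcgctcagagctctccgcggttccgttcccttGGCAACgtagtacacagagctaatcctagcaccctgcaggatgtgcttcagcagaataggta

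The X-box core was present in all 6 genes, between position -152 in Ccdc153 and position 15 in Mns1, counted from the start site. Tekt1 and Mns1 held it on each strand, and in Mlf1 it began at -105, close after the forkhead motif at -116. The other annotated promoters of Tekt1 and Pifo did not hold it. Among the 38 genes of the list with a promoter in the table, 20 (52.6%) held GTTGCC on either strand in at least 1 promoter, against 14.1% of all 27025 genes. The share was 53.3% of 60 other motile cilium genes, 44.8% of 29 genes for transport inside cilia of any kind and 26.7% of 15 choroid plexus genes. The forkhead motif TGTTTAC was found in Ak7, Mlf1 and Sntn (7.89% of 38 genes, against 4.05% of all genes). These matches describe the letters in the window and do not show binding. Foxj1, Rsph1, Rsph4a and Armc4 were without an entry.

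In the hippocampus of Hdac1 cKO mice many motile cilium genes were lower than in controls. With a change of at least 1.5-fold and an unadjusted p under 0.05 in limma, 16 of 35 genes fell and none rose, where 2.87% of all 14265 genes tested fell and 0.498% rose. The difference was negative for 33 of 35 genes, with a median of -0.56 on the log2(FPKM + 1) scale against -0.00068 over all genes. Armc4, Dnaic2 and Dnah9 were tested because of their level in controls, with means under 0.5 FPKM in Hdac1 cKO mice. Without the filter 16 of all 42 genes fell, 40 differences were negative, the median was -0.41, and Tekt1 alone passed adjustment in limma. Over all genes tested the median of the other group comparisons below also lay between -0.01 and 0.01. After Benjamini-Hochberg adjustment over all genes, 3 of the 35 passed 0.05 (Tekt1, Mlf1 and Ccdc153), against 0.154% of all genes, and 19 had an unadjusted p under 0.05. Over 20 settings, this one included, the adjusted call held in 16 for Tekt1, 7 for Mlf1 and 5 for Ccdc153. That of Mlf1 was lost without control mouse 2, 3 or 4 or Hdac1 cKO mouse 2, 3, 4 or 5, and that of Ccdc153 without any mouse but control mouse 1. Fold changes on the log2(FPKM + 1) scale understate the change of low genes. Without Hdac1 cKO mouse 3 the count of 16 was 10. In whole tissue, fewer ependymal cells and less RNA per cell cannot be told apart.

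Proteins of the doublet wall and tip held the largest called changes together with Mlf1, and 4 of 7 fell. Tekt1 encodes a tektin, a filament protein built into the doublet microtubules. Its FPKM was 7.36, 9.41, 10.1 and 6.40 in control mice 1 to 4, and 2.03, 1.27, 2.69, 1.77 and 1.19 in Hdac1 cKO mice 1 to 5. The groups were apart, with every Hdac1 cKO mouse below every control mouse. The log2 difference was -1.75 (SE 0.19) with an adjusted p of 0.00602 (limma). Tekt1 passed the fold and p thresholds in all 19 alternative analyses, while its adjusted p ranged from 0.000564 to 1.00 over them.

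Pifo, which takes part in ciliary disassembly and was among the steepest followers of Ttr, had 2.18, 26.6, 13.2 and 21.6 FPKM in controls and 3.76, 5.15, 1.70, 0.932 and 4.62 FPKM in Hdac1 cKO mice. Control mouse 1 lay inside the Hdac1 cKO range, and the other control mice lay above it. The log2 difference was -1.75 (SE 0.69), with an adjusted p of 0.386 in limma. Mns1, a protein inside the doublet, had 5.55, 4.89, 10.5 and 11.0 FPKM in controls and 3.31, 4.05, 2.35, 6.97 and 5.45 FPKM in Hdac1 cKO mice. The groups overlapped, at a log2 difference of -0.72 (SE 0.29). Enkur, a calcium-channel-binding protein of the doublet, had 6.47, 9.98, 9.62 and 15.3 FPKM in controls and 3.27 to 6.71 FPKM in Hdac1 cKO mice, at a log2 difference of -0.89 (SE 0.22). Fam183b, the most abundant gene of the list, had 57.2 to 105 FPKM in controls and 42.8 to 65.4 FPKM in Hdac1 cKO mice, and its log2 difference of -0.41 (SE 0.18) did not reach the fold threshold. Tekt4 and Sntn did not pass.

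Of the genes with other roles, 4 of 4 fell. Mlf1 encodes an adaptor protein, first known from a leukaemia translocation, that ciliated cells make in quantity. It had 4.70, 7.51, 13.3 and 8.47 FPKM in controls and 2.98, 1.67, 1.5, 1.26 and 0.714 FPKM in Hdac1 cKO mice, with no overlap. The log2 difference was -1.83 (SE 0.28) and the adjusted p 0.0315 in limma. Tmem212, a membrane protein used as an ependymal marker, had 24.5, 32.1, 32.7 and 75.6 FPKM in controls and 11.9, 19.7, 10.3, 17.9 and 14.7 FPKM in Hdac1 cKO mice. These groups did not overlap either, and the log2 difference was -1.31 (SE 0.31). Meig1 and Tctex1d4, a dynein light chain, fell by 0.79 (SE 0.26) and 1.04 (SE 0.42) on the log2 scale.

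The links and spokes between doublets changed in part. Ccdc153, a coiled-coil protein of the nexin link, had 10.8, 15.5, 18.1 and 18.9 FPKM in controls and 7.39, 7.79, 6.01, 9.12 and 6.94 FPKM in Hdac1 cKO mice. Every Hdac1 cKO mouse was below every control mouse, at a log2 difference of -0.98 (SE 0.16) and an adjusted p of 0.0460 in limma. Ccdc113, another coiled-coil protein of motile cilia, had 0.574, 8.39, 8.70 and 8.42 FPKM in controls and 1.15, 2.15, 0.962, 2.15 and 1.71 FPKM in Hdac1 cKO mice. Here control mouse 1 was below every Hdac1 cKO mouse and the other 3 were far above. The log2 difference was -1.24 (SE 0.53). Rsph1 and Rsph4a of the spoke head fell by 1.23 (SE 0.51) and 0.72 (SE 0.29), whereas Rsph9, with 43.2, 75.6, 62.4 and 52.1 FPKM in controls and 29.8, 59.2, 50.1, 48.7 and 34.2 FPKM in Hdac1 cKO mice, had a log2 difference of -0.40 (SE 0.21) and overlapping groups. Ccdc39 and Iqcg differed by -0.41 (SE 0.12) and -0.31 (SE 0.17), under the fold threshold.

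Among the motors, 0 of 5 outer arm genes passed the thresholds, and the only inner arm gene tested, Dnali1, a light intermediate chain, fell. Dnali1 had 1.95, 2.30, 2.47 and 3.00 FPKM in controls and 0.325, 0.71, 1.36, 0.349 and 0.970 FPKM in Hdac1 cKO mice, with no overlap and a log2 difference of -1.0 (SE 0.20). Of the central pair, 1 of 4 genes fell, Spef2 by 0.97 (SE 0.25). Ak7, an adenylate kinase that supplies energy within the axoneme, had 1.17, 3.44, 3.01 and 2.46 FPKM in controls and 0.47 to 0.63 FPKM in Hdac1 cKO mice. It fell by 1.13 (SE 0.20), with every Hdac1 cKO mouse below the controls, and an adjusted p of 0.0624 (limma). Ak8, the other adenylate kinase, had 0.673, 6.76, 3.40 and 4.44 FPKM in controls against 0.962 to 3.53 FPKM and did not pass.

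Of the 3 transcription factors, Foxj1 passed the thresholds. Foxj1 had 0.387, 1.06, 2.32 and 2.20 FPKM in controls and 0.258, 0.402, 0.433, 0.415 and 1.10 FPKM in Hdac1 cKO mice. The ranges overlapped through control mouse 1 and Hdac1 cKO mouse 5, and Foxj1 fell by 0.65 (SE 0.27) on the log2 scale, with an adjusted p of 0.359 in limma. The call was lost without control mouse 3 or 4 and without Hdac1 cKO mouse 1, 2, 3 or 4, and with Ttr or the choroid plexus list as a covariate. At equal Ttr the log2 difference of Foxj1 was -0.14 (SE 0.30). The calls of Pifo, Mns1 and Ccdc113 were also lost without control mouse 3 or 4 or Hdac1 cKO mouse 1 or 3, and each of them without further single mice. Rfx3, which cells with immotile cilia also use, had 6.10, 5.18, 4.56 and 4.42 FPKM in controls and 4.93, 4.08, 4.75, 6.34 and 5.32 FPKM in Hdac1 cKO mice, a log2 difference of 0.0023 (SE 0.14). Rfx2 had 0.0997 to 0.774 FPKM in controls and 0.249 to 0.597 FPKM in Hdac1 cKO mice, a log2 difference of 0.02 (SE 0.19). In all, 7 of 35 genes had every Hdac1 cKO mouse below every control mouse (Ak7, Ccdc153, Ccdc39, Dnali1, Mlf1, Tekt1 and Tmem212), against 2.15% of all genes. Without the filter 8 of 42 did, against 1.93%, the eighth being the heavy chain Dnah11, at 0.0188 to 0.111 FPKM against 0.133 to 0.302 FPKM in controls.

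**Figure D2:**
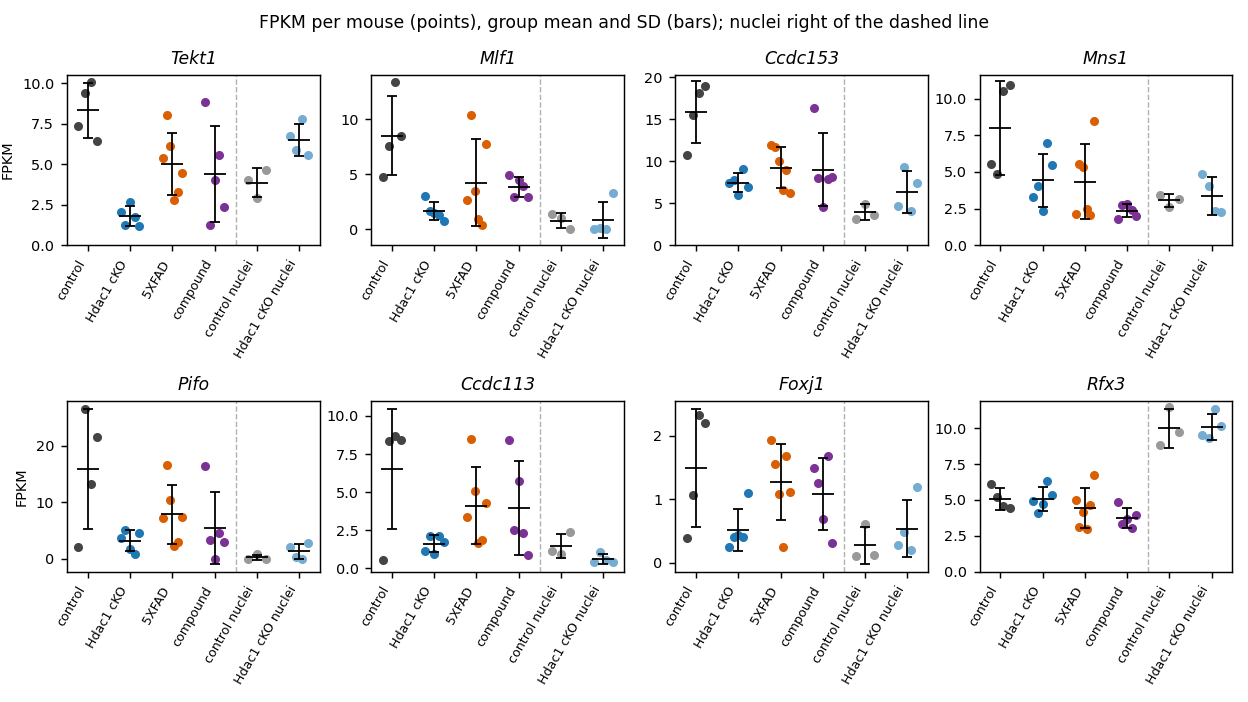
FPKM of named motile cilium genes by group, 1 point a mouse, with bars at group means and error bars of 1 SD. GFAP+ nuclei stand right of the dashed line. Tekt1 and Mlf1 of Hdac1 cKO mice sit at or under 2.98 FPKM, below every control mouse, while Rfx3 overlaps across the groups.

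In 5XFAD mice fewer of the genes passed the thresholds against the same 4 controls. Of 34 genes tested, 8 fell and none rose (1.23% of all 14402 genes fell and 1.72% rose), 32 differences were negative, and the median was -0.39. None passed adjustment in limma, where 0.708% of all genes did, and 12 had an unadjusted p under 0.05. Spag17 was tested because of its level in controls, with a mean of 0.406 FPKM in 5XFAD mice. The 8 genes were Tmem212, Mns1, Ccdc153, Ak7, Meig1, Rsph4a, Tekt1 and Spef2. Tmem212 had 6.44 FPKM at the lowest, 17.0 at the median and 26.8 at the highest in 5XFAD mice, at a log2 difference of -1.21 (SE 0.39). Ccdc153 ran from 6.27 FPKM through a median of 9.49 FPKM to 11.9 FPKM, at -0.72 (SE 0.20), and Mns1 from 2.06 FPKM through 3.91 FPKM to 8.46 FPKM, at -0.81 (SE 0.35). None of the 34 tested genes had its 5XFAD mice all below its controls, against 0.986% of all genes tested. Without the filter 2 of 42 did, against 0.871%, the heavy chains Dnah11 (0.0358 to 0.110 FPKM), which lay below every control in Hdac1 cKO mice too, and Dnah6 (0.0802 to 0.297 FPKM against 0.386 to 0.653 FPKM). Foxj1 ran from 0.252 FPKM through 1.33 FPKM to 1.93 FPKM, a log2 difference of -0.10 (SE 0.28) that did not pass, and Mlf1 from 0.362 FPKM through 3.02 FPKM to 10.4 FPKM, at -1.17 (SE 0.61), with an adjusted p of 0.547 in limma. The count of 8 was 16 without control mouse 1, 4 without control mouse 3, and 5 without control mouse 4, 5XFAD mouse 4 or 5XFAD mouse 5.

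Compound mice, set against the same controls, had 10 of 34 genes lower and none higher (2.02% of all 14348 genes fell and 2.22% rose). Differences were negative for 32 genes, with a median of -0.47. Spag17 was again tested because of its level in controls, with a mean of 0.425 FPKM in compound mice. Mns1 passed adjustment, as did 0.662% of all genes, and 13 genes had an unadjusted p under 0.05. Mns1 had 1.81, 2.77, 2.79, 2.39 and 2.00 FPKM in compound mice 1 to 5, all below the lowest control at 4.89 FPKM. Its log2 difference was -1.36 (SE 0.23), with an adjusted p of 0.0208 in limma. It passed the fold and p thresholds in all 19 alternatives. Over 20 settings, this one included, its adjusted call held in 15. Mns1, Dnaic1 and Ccdc39 were the 3 of 34 tested genes with every compound mouse below every control, against 1.52% of all genes tested, and with Dnah9 they were 4 of 42 without the filter, against 1.35%. Tekt1 had 8.81, 1.23, 4.04, 5.57 and 2.35 FPKM, with compound mouse 1, the mouse with high Ttr, inside the control range and the others below it, at -0.95 (SE 0.37). Mlf1 had 4.93, 2.92, 4.46, 3.90 and 2.89 FPKM, a narrow range, at -0.92 (SE 0.24), which turned to 0.0578 with the choroid plexus list as a covariate. Among outer arm genes Ccdc114, a docking factor, fell by 0.77 (SE 0.30) and Dnaic1, an intermediate chain, by 0.66 (SE 0.20). The same genes were at -0.56 (SE 0.27) and -0.26 (SE 0.19) in Hdac1 cKO mice, and neither passed between compound and Hdac1 cKO mice. The count was 17 without control mouse 1, 5 without control mouse 2 and 5 with the replicate number as a block.

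**Figure D3:**
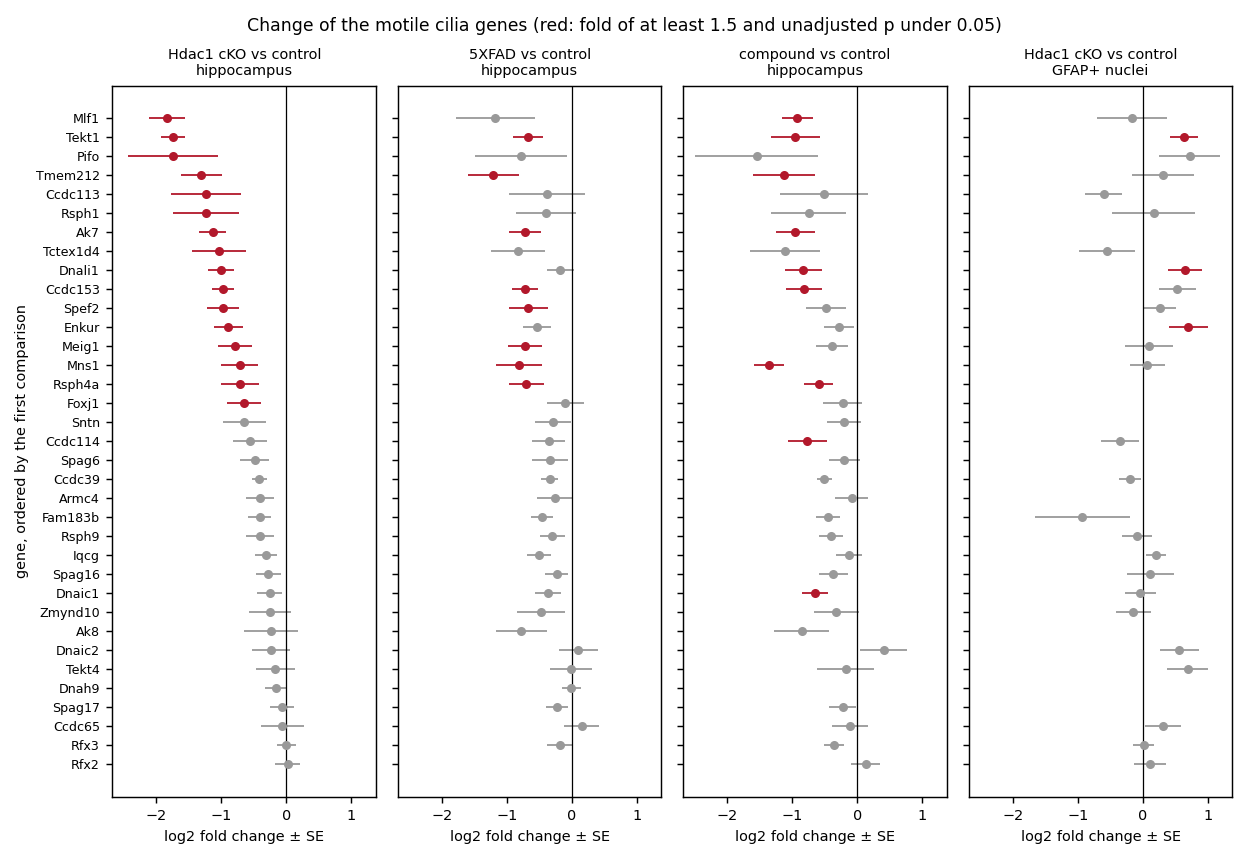
Log2 difference on the log2(FPKM + 1) scale, with its standard error, of the 35 motile cilium genes tested in hippocampus, in 3 hippocampal comparisons with the same controls and in GFAP+ nuclei (red, past the fold and unadjusted p thresholds). Hdac1 cKO differences from controls reach -1.83 and lie below 0 for 33 of 35 genes, and those in nuclei lie on both sides of 0.

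Few of these genes passed between mice with 5XFAD that had or lacked Hdac1. Compound mice compared with 5XFAD mice had 1 of 33 genes lower and none higher (0.593% of all 14326 genes fell, 0.691% rose and 0.00698% passed adjustment). That gene was Dnali1, with 3.16, 3.06, 1.06, 1.91, 2.02 and 1.47 FPKM in 5XFAD mice 1 to 6 and 2.22, 0.315, 0.216, 1.67 and 0.902 FPKM in compound mice. The groups overlapped, and the log2 difference was -0.65 (SE 0.27) with an adjusted p of 0.734 in limma. None of the 33 passed adjustment, 2 had an unadjusted p under 0.05, and 19 differences were negative, with a median of -0.10. Rfx2 was tested because of its level in compound mice, with a mean of 0.408 FPKM in 5XFAD mice. No gene passed without 5XFAD mouse 2 or compound mouse 2, 3 or 5, and 2 passed without 5XFAD mouse 4 or 5 or compound mouse 1 or 4.

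Whether Hdac1 loss acted differently with and without 5XFAD was tested by the interaction over all 20 mice. It was positive for 31 of 35 genes, with a median of 0.54, meaning that the difference made by Hdac1 loss was less negative in mice with 5XFAD. With the fold and unadjusted p thresholds, 9 genes had a positive interaction and none a negative one, against 2.69% and 1.38% of all 14389 genes. The size ranged from 0.69 (SE 0.25) for Iqcg to 2.09 (SE 0.65) for Mlf1, with Tekt1 at 1.47 (SE 0.44), Tmem212 at 1.40 (SE 0.56) and Enkur at 1.15 (SE 0.31). None of the 35, and 0% of all genes, passed adjustment in limma, and 9 of the 35 had an unadjusted p under 0.05. With Ttr in the fit 3 genes passed the thresholds, and without control mouse 1, 14 did.

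Compound and Hdac1 cKO mice, both without HDAC1 in the neural lineage, differed in both directions. Of 33 genes, 4 were higher in compound mice (Mlf1, Tekt1, Dnaic2 and Enkur) and 2 lower (Mns1 and Ak8), where 2.94% of all 14195 genes were higher, 0.613% lower and 1.49% passed adjustment. Mlf1 was at 2.89 to 4.93 FPKM in compound mice and at 0.714 to 2.98 FPKM in Hdac1 cKO mice, a log2 difference of 0.91 (SE 0.21) with an adjusted p of 0.0592 in limma. Enkur had 8.08, 7.15, 5.31, 11.6 and 8.90 FPKM in compound mice against 4.30, 5.95, 6.71, 4.78 and 3.27 FPKM, at 0.61 (SE 0.20). Dnaic2, an intermediate chain of the outer arm, had 1.45, 0.778, 2.59, 1.08 and 0.212 FPKM against 0 to 0.642 FPKM, at 0.64 (SE 0.26), and was tested because of its level in compound mice. Armc4 was tested for the same reason, with a mean of 0.390 FPKM in Hdac1 cKO mice. Mns1 and Ak8 were at -0.64 (SE 0.21) and -0.62 (SE 0.28). None of the 33 passed adjustment and 8 had an unadjusted p under 0.05. Without the filter 4 of 42 genes were higher and 1 was lower. The count of 6 was 3 without Hdac1 cKO mouse 1 or 2 or compound mouse 1, and 2 without Hdac1 cKO mouse 5.

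Ttr was used as the marker of choroid plexus in each piece of tissue, because its level varied widely within a group. Of 20 choroid plexus genes, 20 passed the thresholds as lower in Hdac1 cKO mice, 1 in 5XFAD mice and 12 in compound mice. The difference from controls was negative for 20 of 20 genes in each of the 3 groups. Its median was -2.65 in Hdac1 cKO mice, -1.36 in 5XFAD mice and -2.31 in compound mice. The summed FPKM of these genes ran from 714 to 22196 in controls, from 122 to 1778 in Hdac1 cKO mice, from 129 to 8595 in 5XFAD mice and from 122 to 14912 in compound mice. The slope of each cilium gene on Ttr was then fitted over the 20 mice with genotype in the model, so that it rests on differences between mice of 1 genotype. It was above 0 for 35 of 35 genes tested, against 49.7% of all 14388 genes, and the median was 0.061 per doubling of Ttr, against -0.0002 over all genes and 0.43 over 19 choroid plexus genes other than Ttr. The slope passed adjustment for 2 of the 35 genes and 0.626% of all genes, and for 19 of 19 choroid plexus genes. An unadjusted p under 0.05 was reached by 16 of the 35 (limma).

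Pifo and Ccdc113 were the genes whose slope passed adjustment. Pifo changed by 0.32 (SE 0.07) on the log2 scale per doubling of Ttr, with an adjusted p of 0.0212, and Ccdc113 by 0.23 (SE 0.05), with an adjusted p of 0.0187 in limma. In 5XFAD mice 1 to 6 Ttr was 3058, 7892, 5554, 153, 53.8 and 6617 FPKM, Pifo was 7.24, 16.6, 10.5, 2.27, 3.05 and 7.46 FPKM, and Ccdc113 was 3.34, 8.47, 5.06, 1.68, 1.86 and 4.28 FPKM. The pair of mice with the least Ttr had the least Pifo and Ccdc113, and 5XFAD mouse 2 had the most of all. In compound mice 1 to 5 Pifo was 16.4, 3.37, 0, 4.66 and 2.94 FPKM and Ccdc113 was 8.44, 2.5, 5.72, 2.31 and 0.883 FPKM, again highest in the mouse with 13910 FPKM of Ttr. Mlf1 came next, at 0.18 (SE 0.05) and an adjusted p of 0.218, and Foxj1 was at 0.09 (SE 0.03) and an adjusted p of 0.431. Among genes averaging 2 FPKM or more the flattest slopes were those of Rsph9 at 0.0050 (SE 0.03), Enkur at 0.01 (SE 0.03) and Rfx3 at 0.02 (SE 0.02). Neither slope kept its adjusted call without control mouse 1, 5XFAD mouse 4 or compound mouse 1, that of Pifo was also lost without 5XFAD mouse 2, and 4 genes passed without Hdac1 cKO mouse 5.

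**Figure D4:**
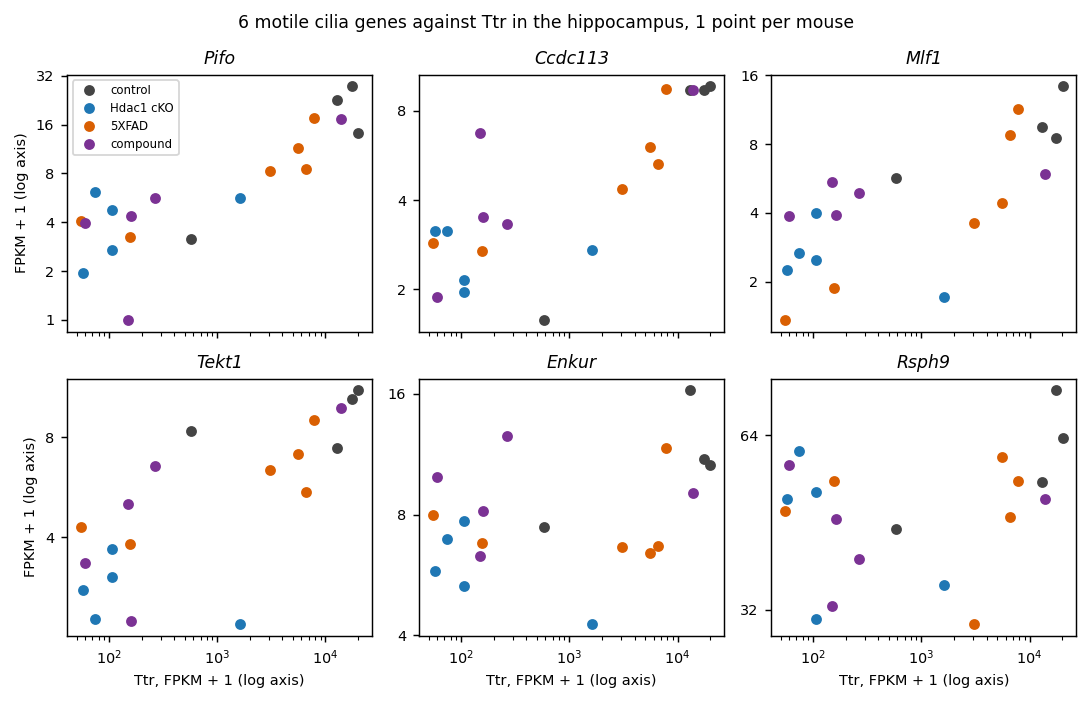
FPKM of 6 motile cilium genes against FPKM of Ttr in the 20 hippocampal mice, 1 point a mouse coloured by group, both axes logarithmic after adding 1. Pifo and Ccdc113 are high where Ttr is high, Rsph9 and Enkur show the flattest slopes, and Tekt1 of Hdac1 cKO mice stays at or below 2.69 FPKM, also in the mouse with 1608 FPKM of Ttr.

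With Ttr added as a covariate, group differences were compared at equal Ttr. The fit assumes a linear relation on the log scale, and the noise of Ttr enters it. Hdac1 cKO mice had 56.5 to 1608 FPKM of Ttr and the controls other than mouse 1 had 12903 to 20146 FPKM. The comparison of these groups thus rests on extending the slope over levels that they hardly share. Because Ttr differed between the groups, the covariate can also take up a difference made by genotype. In Hdac1 cKO mice against controls, 3 of 35 genes were lower, against 1.21% of all genes, 24 differences were negative, and the median went from -0.56 to -0.14. The 3 genes were Tekt1 at -1.11 (SE 0.34), Enkur at -0.82 (SE 0.29) and Ak7 at -0.60 (SE 0.27). None of the 35, and 0% of all genes, passed adjustment in limma, and 3 of the 35 had an unadjusted p under 0.05. Tekt1 passed the fold and p thresholds in all 24 alternatives of this fit. Counting the fit given here, Enkur passed in 24 of 25 and Ak7 in 13 of 25. The call of Ak7 was lost without control mouse 2 or 3, Hdac1 cKO mouse 3 or 5, compound mouse 5 or any 5XFAD mouse but mouse 2, and that of Enkur without Hdac1 cKO mouse 5. Mlf1 was at -0.86 (SE 0.47) and Ccdc153 at -0.54 (SE 0.27), neither past the thresholds, while Pifo moved from -1.75 to 0.06 (SE 0.60) and Ccdc113 from -1.24 to 0.05 (SE 0.44). The count was 5 without control mouse 1, 5XFAD mouse 2 or compound mouse 1, and 1 without Hdac1 cKO mouse 5.

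At equal Ttr, 2 of 35 genes were lower in 5XFAD mice than in controls, Tmem212 at -0.94 (SE 0.37) and Mns1 at -0.64 (SE 0.30), against 0.994% of all genes. Tmem212 passed in 24 of 25 settings and Mns1 in 9 of 25. None of the 35 passed adjustment where 0.577% of all genes did in limma, 7 had an unadjusted p under 0.05, and the median was -0.27. The count was 8 without control mouse 1, 6 without 5XFAD mouse 2, 0 without control mouse 4, and 1 without any of 8 other mice. In compound mice 1 gene was lower than in controls, Mns1 at -1.03 (SE 0.35), against 1.43% of all genes. None passed adjustment (0.834% of all genes did, in limma), 4 had an unadjusted p under 0.05, and the median was -0.16. The count was 3 without control mouse 1 or compound mouse 1 or 4, and 2 without control mouse 2 or 3, 5XFAD mouse 2, 3 or 5, or compound mouse 5. Against 5XFAD mice, compound mice had 0 of 35 genes lower at equal Ttr, against 0.605% of all genes. There 0.0139% of all genes passed adjustment in limma, none of the 35 did, and 2 had an unadjusted p under 0.05. The count was 2 without compound mouse 1 and 1 without Hdac1 cKO mouse 5, 5XFAD mouse 2, 3, 5 or 6, or compound mouse 3 or 4.

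**Figure D5:**
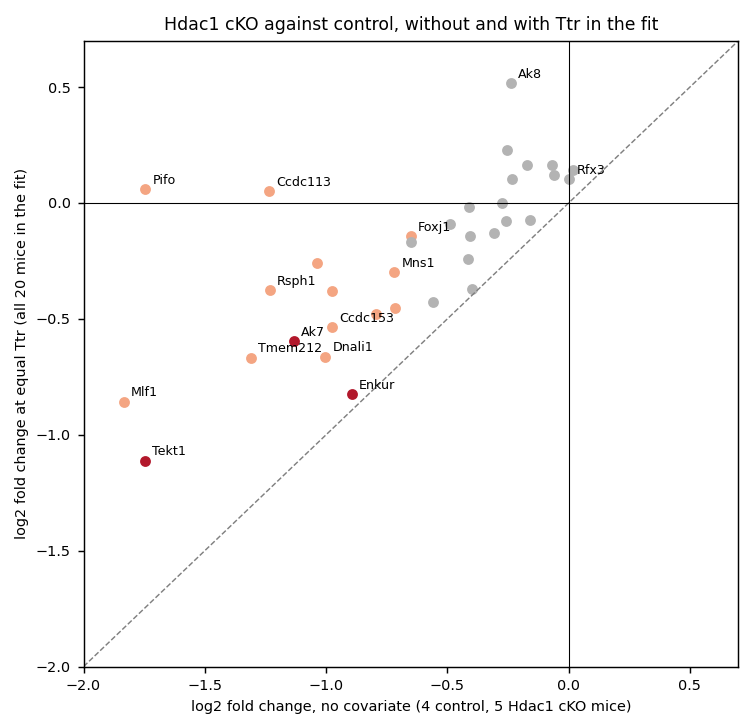
Log2 difference between Hdac1 cKO and control hippocampus of each tested motile cilium gene without Ttr in the fit (horizontal) and at equal Ttr (vertical), on the log2(FPKM + 1) scale, with orange for genes past the thresholds without Ttr only, dark red for those past them in both fits and the dashed line at equality. Tekt1 moves from -1.75 to -1.11, Pifo from -1.75 to 0.06 and Ccdc113 from -1.24 to 0.05.

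Control mouse 1, which carried HDAC1 but little Ttr, was also set beside the other mice without a model. Its level was below every other control mouse for 27 of 35 genes (4007 of 14265 over all genes), and the median gene stood at 52.2% of the mean of the other controls, against 98.7% over all genes. Of the 35, 18 lay within the Hdac1 cKO range, 8 below it and 9 above every Hdac1 cKO mouse. Over all 14265 genes 8297 lay within that range, 3013 below it and 20.7% above, shares close to those of the list. The 9 were Ak7, Armc4, Ccdc153, Ccdc39, Dnah9, Dnali1, Mlf1, Tekt1 and Tmem212. All but Armc4 and Dnah9 are the 7 genes with every Hdac1 cKO mouse below every control mouse. Control mouse 1 had to lie above the Hdac1 cKO range for these 7, so its place adds nothing to that result. Armc4 and Dnah9 were tested because of their level in controls. Tekt1 was at 85.3% of the other controls in this mouse, Ccdc153 at 61.5% and Mlf1 at 48.1%. Pifo, Rsph1 and Ccdc113 were at 10.6%, 16.3% and 6.76%. Hdac1 cKO mouse 5 gave the converse case, with more Ttr (1608 FPKM) than control mouse 1 and the lowest Tekt1 (1.19 FPKM) and Mlf1 (0.714 FPKM) of its group, but the highest Foxj1 (1.10 FPKM). Single mice allow no test.

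In GFAP+ nuclei few genes of the list passed the thresholds. Of 27 genes tested, none was called lower and 3 were higher in Hdac1 cKO nuclei, against 1.34% and 1.24% of all 15070 genes, and 17 differences were positive, with a median of 0.11. None of the 27 passed adjustment in limma, where 0.0133% of all genes did, and 3 had an unadjusted p under 0.05. Tekt1 had 4.03, 2.89 and 4.64 FPKM in control nuclei and 6.75, 5.88, 7.82 and 5.56 FPKM in Hdac1 cKO nuclei, all above the controls. The log2 difference was 0.64 (SE 0.21) with an adjusted p of 0.984 in limma. Dnali1 had 0.453, 0.597 and 0.298 FPKM against 0.760, 1.21, 2.00 and 1.27 FPKM, also without overlap, at 0.65 (SE 0.27), and Enkur 0.979, 0.790 and 0.704 FPKM against 0.774, 2.16, 2.92 and 2.51 FPKM, at 0.70 (SE 0.30). Dnali1 averaged 0.449 FPKM in control nuclei and was tested because of its level in Hdac1 cKO nuclei. The same held for Pifo, at 0.266 FPKM in control nuclei. Tctex1d4 was tested because of its level in control nuclei, with a mean of 0.392 FPKM in Hdac1 cKO nuclei. Without the filter 3 genes were higher and 1, Ccdc113, was lower. Tekt1 and Dnali1 were the 2 genes of all 42 without overlap in this direction, against 2.67% of all genes without the filter and 2.97% of those that passed it. Of 15 choroid plexus genes 3 were higher in Hdac1 cKO nuclei. Their summed FPKM was 62.5 to 237 in control and 177 to 365 in Hdac1 cKO nuclei, ranges that overlapped, and their part in the result was not tested. The count of 3 was 6 without control nuclei library 3 and 1 without control nuclei library 4.

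A further list of motile cilium genes was counted in the same way. Of 45 tested, 19 fell in Hdac1 cKO mice and none rose, led by Dynlrb2, a dynein light chain, at -1.85, Ccdc135 at -1.69 and Morn5 at -1.23 on the log2 scale. In 5XFAD mice 8 of 47 fell, led by Dynlrb2 at -1.37, and in compound mice 11 of 48, led by Ccdc135 at -1.5 and Wdr63 at -1.10. Their summed FPKM was 287 to 499 in controls, 213 to 238 in Hdac1 cKO mice, 244 to 322 in 5XFAD mice and 222 to 398 in compound mice. In Hdac1 cKO mice the sum was below every control. At equal Ttr 3 of 43 were lower in Hdac1 cKO mice, and 2 of 43 had a slope on Ttr that passed adjustment. Genes for intraflagellar transport and the BBSome, which immotile primary cilia also need, had 0 of 33 lower in Hdac1 cKO mice and 1 of 33 in 5XFAD and in compound mice, Arl6 and Bbs7. Their differences from controls were negative for 28 of 33 genes in Hdac1 cKO mice, 28 of 33 in 5XFAD mice and 25 of 33 in compound mice. Their summed FPKM was 899 to 987 in controls, 820 to 883 in Hdac1 cKO mice, 736 to 876 in 5XFAD mice and 804 to 922 in compound mice, so that every Hdac1 cKO and 5XFAD mouse lay below every control.

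Ependymal genes that are not part of the axoneme fell in part. In Hdac1 cKO mice 3 of 6 were lower: Mia, Hdc and Rarres2. Rarres2, a secreted chemokine precursor, was at 56.0 to 85.3 FPKM in controls and 26.8 to 50.7 FPKM in Hdac1 cKO mice, while Hdc, the histamine-forming enzyme, was at 0.419 to 3.83 FPKM and 0.150 to 1.49 FPKM. In 5XFAD mice 2 of 6 were lower, Mia at -0.88 and Hdc at -0.68 on the log2 scale, and Vim, an intermediate filament gene that astrocytes also express, was higher at 1.16. In compound mice none of the 6 was lower and Vim was higher, at 1.46. Differences from controls were negative for 5 of 6 genes in Hdac1 cKO mice and for 4 of 6 in 5XFAD and in compound mice. The medians were -0.59, -0.34 and -0.40. Summed FPKM of the 6 genes was 350 to 412 in controls, 294 to 356 in Hdac1 cKO mice, 372 to 485 in 5XFAD mice and 402 to 599 in compound mice. This sum includes Vim, so it does not measure ependymal cells alone. In Hdac1 cKO mice no marker of neurons, astrocytes, oligodendrocytes, microglia or endothelium passed the thresholds in either direction, whereas 2 of 5 meningeal genes, Igf2 and Slc6a13, and 1 of 4 genes of newborn neurons and progenitors, Calb2 at -0.61, passed as lower. Of the 42 markers of those 5 cell types 3 had every Hdac1 cKO mouse above every control mouse. Neuronal Rbfox3 was at 164 to 178 FPKM against 139 to 156 FPKM in controls, astrocytic Aqp4 at 27.1 to 32.2 FPKM against 20.9 to 24.0 FPKM, and microglial Csf1r at 14.9 to 15.7 FPKM against 12.2 to 14.3 FPKM. The summed FPKM of oligodendrocyte markers was 1221 to 1294 in controls and 1048 to 1238 in Hdac1 cKO mice. In 5XFAD and compound mice 7 of 10 microglial markers were higher than in controls, as was 1 of 8 astrocyte markers in 5XFAD mice (Gfap) and 2 of 8 in compound mice (Gfap and Aqp4). In compound mice 1 of 7 endothelial markers and 1 of 5 meningeal genes were lower than in controls. Gfap, the intermediate filament of astrocytes, was at 23.5 to 26.6 FPKM in controls, 81.3 to 118 FPKM in 5XFAD mice and 89.0 to 176 FPKM in compound mice. The summed FPKM of astrocyte markers was 943 to 1058 in controls, 1059 to 1222 in 5XFAD mice and 1142 to 1285 in compound mice. The part of these cell types in the cilium results was not tested.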

How the data were processed

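RNA-seq of 20 hippocampal and 7 nuclei libraries was analysed, and 7 of 34 samples (6 ChIP-seq, 1 of nuclei) were not analysed here. The authors aligned reads with TopHat to mm9 and computed the FPKM values they deposited with Cufflinks (version 2.0.0, as given in the submitters' processing notes). Each library was taken as 1 mouse, grouped by genotype label, so p-values measure the spread between libraries.

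Tests ran on log2(FPKM + 1) for genes averaging 0.5 FPKM or more in limma 3.58.1 (R 4.3.3, trend and robust moderation), with Benjamini-Hochberg adjustment over all genes. The fold and p thresholds, 1.5 and 0.05, are those of the study. The fits were tested on simulated data. Low values move in steps worth 1 fragment, which gave relative depth, and fragments could be estimated for 23 of 42 genes. A low depth leaves a few fragments behind genes such as Foxj1. Promoters and tables used Python 3.11.15, numpy 2.4.6, pandas 2.3.3 and scipy 1.17.1, and figures matplotlib 3.10.9.

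Members and lists were chosen with earlier results of these data known. The value of a single cell type marker is not reported here. Values are given for the transcription factors, genes past the adjusted threshold, the 3 called genes with the largest change per direction, the 3 steepest and flattest slopes on Ttr among genes of at least 2 FPKM, and the 3 highest genes in each tissue. Promoters came from RefSeq (GRCm38.p6) for 38 of 42 genes. Alternatives were another pseudocount, filter, normalization or moderation, a replicate block, 1 fit over all groups, Ttr or choroid plexus genes as a covariate, and leaving out each library.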

Additional observations from a re-analysis of the deposited data

Results flagged for a closer look

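Within groups of 4 to 6 libraries, 110 sets of values were examined for 1 library far from the rest, and 14 were found. The rule flags about 1 in 20, or 5.5, where sets are independent and values normally distributed. These sets were untransformed FPKM of genes measured in the same libraries, so 14 cannot be weighed against 5.5. Ttr was 1608 FPKM in Hdac1 cKO mouse 5, against at most 106 FPKM in the rest of its group, and 13910 FPKM in compound mouse 1, against at most 265 FPKM. Compound mouse 1 also stood apart in Pifo (16.4 FPKM, the others 0 to 4.66), Ak7 (2.34 FPKM, the others 0.308 to 0.849) and Ccdc39 (11.0 FPKM, the others 8.63 to 9.23). It was the highest of its group for 20 of 35 genes, a rank that was not counted over all genes. 5XFAD mouse 2, with the most Ttr of its group, stood apart in Ak7 (2.42 FPKM, the others 0.630 to 1.18) and Enkur (10.7 FPKM, the others 5.43 to 6.98). Control mouse 1, with the least Ttr of the controls, stood apart in Ccdc113 (0.574 FPKM, the others 8.39 to 8.70).

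Tmem212 was 75.6 FPKM in control mouse 4 (the others 24.5 to 32.7). Foxj1 was 1.10 FPKM in Hdac1 cKO mouse 5 (the others 0.258 to 0.433), Ak8 was 0.962 FPKM in Hdac1 cKO mouse 4 (the others 2.83 to 3.53), and Rfx2 was 0.249 FPKM in Hdac1 cKO mouse 2 (the others 0.551 to 0.597). Ak8 was 3.54 FPKM in 5XFAD mouse 3 (the others 0.584 to 1.65). Mlf1 was 3.30 FPKM in Hdac1 cKO nuclei library 4 (the others 0 to 0.139).

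The log2 difference made by Hdac1 loss differed between mice with and without 5XFAD for 9 genes at an unadjusted p under 0.05 in limma, none after adjustment. The interaction was 2.09 for Mlf1, 1.47 for Tekt1, 1.40 for Tmem212, 1.16 for Spef2, 1.15 for Enkur, 1.12 for Meig1, 0.91 for Ak7, 0.88 for Ccdc153 and 0.69 for Iqcg.

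Tekt1 and Dnali1 had every Hdac1 cKO mouse below every control mouse in hippocampus and every Hdac1 cKO library above every control library in nuclei, where the log2 differences were 0.64 and 0.65. The difference between tissues was not tested, since tissue, RNA fraction and library chemistry changed together.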

How the results depend on the processing

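Counts of genes past the fold and p thresholds changed with adjusted p-values, with Ttr or choroid plexus genes as a covariate and with single mice left out, and the cause was not tested. For Hdac1 cKO against control, the 16 genes became 3 with adjusted p-values, 3 with Ttr as a covariate and 2 with the other choroid plexus genes as a covariate, and ran from 10 to 20 with each mouse left out. For 5XFAD against control the 8 became 0, 2 and 1 under the same settings (4 to 16 with a mouse left out), and for compound against control the 10 became 1, 1 and 2 (5 to 17). Compound against 5XFAD gave 1 and 0 in all 3 (0 to 2). Compound against Hdac1 cKO gave 6 and 0 with adjusted p-values (2 to 7), and nuclei 3 and 0 (1 to 6). The 9 interactions became 3 with Ttr in the fit (7 to 14).

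The 2 slopes on Ttr became 1 with a pseudocount of 0.1, 4 with the choroid plexus list in place of Ttr and 8 without genotype in the fit (0 to 4 with a mouse left out). At equal Ttr, the 3 genes of Hdac1 cKO ran from 1 to 5. The 2 of 5XFAD became 1 with a pseudocount of 0.1 and 1 with the choroid plexus list (0 to 8), the 1 of compound against control became 4 and 2 (1 to 3), and the 0 of compound against 5XFAD became 1 with that pseudocount (0 to 2).

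Directions reversed for Ccdc113 (0.0507 with Ttr and 0.37 with the choroid plexus list as covariate) and Pifo (0.0596 and 0.41) in Hdac1 cKO mice, and for Mlf1 in compound mice (0.0578 with the list). Of 1047 alternatives over 51 single-gene values, 856 kept direction and call, 186 lost the call and 5 reversed. The adjusted p of Mlf1 and of Ccdc153 in Hdac1 cKO mice each went up to 1.00, and that of Mns1 in compound mice up to 0.386.

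Same-numbered libraries came from different mice, and their correlations ran from -0.113 to 0.0778, so the numbers do not pair them. With the replicate block the counts were 12, 7, 5, 1, 6 and 2 for Hdac1 cKO, 5XFAD and compound against control, compound against 5XFAD, compound against Hdac1 cKO and nuclei.

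Depth limits the low genes: Pifo rested on 0 to 134 fragments a library and Tekt2 on 0 to 4.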
